A study of Homo sapiens with 6 samples.

Results

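The genes described here are 9 genes of the inflammasome, of the inflammatory caspases and of lytic cell death, namely AIM2, IFI16, PYCARD, CASP1, CASP4, GSDMD, IL18, RIPK3 and MLKL. They were taken by name out of the 18417 named genes of the array, and each had 1 probe set that the platform annotation paired with its symbol and no other. Their levels were measured in HCT116, an established line of human colorectal carcinoma cells, on 6 single-colour Affymetrix whole-transcript arrays. The cells had been given 1 of 2 double-stranded RNA oligos by transient transfection and were taken 48 h later. In the 3 arrays labelled control the oligo was siGFP, against a protein that human cells do not make, and in the 3 labelled siChe-1 it was directed against Che-1, the product of AATF. Both groups therefore share the transfection of a double-stranded RNA, and there was no untransfected group to compare with. The labels do not tell whether the arrays come from separate cultures, and p-values therefore cover only the spread between these arrays, which may be technical.

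The inflammasome is a cytosolic complex that turns a sensed danger into proteolysis. AIM2 and IFI16 bind DNA, PYCARD (also called ASC) joins such sensors to caspase-1, and caspase-1 cleaves the precursor of interleukin-18 and gasdermin D, whose amino-terminal fragment opens pores in the plasma membrane. Caspase-4, encoded by CASP4, is itself a receptor for bacterial lipopolysaccharide and cleaves gasdermin D without that complex. Necroptosis is a separate form of lytic death in which the kinase RIPK3 phosphorylates MLKL, which then breaches the membrane. Epithelial cells of the gut are known to make interleukin-18, and several of these genes are known to be induced by interferons.

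CASP4 and MLKL were lower in the arrays labelled siChe-1, each by about 1 log2 unit, and the other 7 genes did not pass the test. CASP4 stood at 50.0% and MLKL at 46.1% of its level in the arrays labelled control, which is the same as control levels of 200.1% and 217% of those in the siChe-1 arrays. In such bulk samples, fewer cells that carry a transcript and less transcript in each cell cannot be told apart. GSDMD (difference -0.38) and IL18 (0.44) did not pass. AIM2, IFI16, CASP1 and RIPK3 read at a level that unexpressed genes also reach in both groups, so these arrays do not show whether they changed.

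AATF, the gene targeted by the oligo, read 8.74 ± 0.18 in the siChe-1 arrays, above its level in the control arrays (7.62 ± 0.12, log2 RMA intensity, SD, n = 3 each; limma adjusted p = 0.00122; exact two-sided permutation p = 0.1). This goes against the labels, so groups are called by their labels throughout, differences are siChe-1 minus control, and each direction given here would be the opposite if group labels had been swapped. The values are log2 intensities, made by the authors with RMA, and the 6 arrays had medians between 4.95 and 5.05. The array labelled siChe-1 replicate 1 stood apart: its genes lay on average 0.190 from their group mean, against 0.0992 to 0.132 in the other 5 arrays, and limma gave it an array weight of 0.220 against 0.933 or more. Results are therefore given with and without it where it matters. As a guide to background, 341 olfactory receptor genes, a family that is mostly silent outside the nose, had a 95th percentile of 4.12 in the control group and 4.30 in the siChe-1 group, and a gene at or below it in a group is called not shown to be above background. Single receptors can be well above it, as OR51B4 was (9.09 and 9.77, named after its values were seen). Of 12 markers of colon epithelium, 11 were above that level in at least 1 group, VIL1 was not, and KRT19 alone passed the test (-0.59, limma adjusted p = 0.0171). At an unadjusted p under 0.05 by limma there were 6 of the 12, against 17.7% of all genes. Of these 6, KRT8 (-0.39) and KRT18 (-0.44) were below 0 like KRT19, and CDH1 (0.33), CDX1 (0.43) and CLDN3 (0.47) were above 0. Of 22 leukocyte markers 19 were not above it, PTPRC among them at 2.41 and 2.46. None of the 22 passed by limma. An unadjusted p under 0.05 was reached by 2, CD14 (0.38) and CD3D (0.34), both among the 19. The mean of the leukocyte list lay between 3.53 and 3.60 in the control arrays and between 3.60 and 3.72 in the siChe-1 arrays. The other 3 leukocyte markers, TYROBP, SPI1 and NKG7, were above it, so a level above the guide does not by itself show expression. By limma none of 10 markers of fibroblasts and smooth muscle passed (2 at an unadjusted p under 0.05, COL1A1 at 0.38 and ACTA2 at -0.46) and none of 8 endothelial markers did (0 at an unadjusted p under 0.05). Above the guide level in at least 1 group were 4 of those 10, COL1A1 and ACTA2 among them, and 2 of those 8, CLDN5 and ESAM.

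Promoter sequence is shown for the members that passed, CASP4 and MLKL, for AIM2 as the only other member with a motif match, and for TLR3, the gene with the largest difference in the wider pathway. Each run is 300 bases from RefSeq (GRCh38.p14), 250 before and 50 after the annotated start, read 5′ to 3′ on the gene's strand. CASP4 is chr11:104968525-104968824 (minus strand), MLKL is chr16:74700813-74701112 (minus strand), AIM2 is chr1:159076717-159077016 (minus strand) and TLR3 is chr4:186068906-186069205 (plus strand). Capitals mark matches, on either strand, to 3 motifs, of which the first and the third are known to be bound by interferon-activated factors.
CASP4: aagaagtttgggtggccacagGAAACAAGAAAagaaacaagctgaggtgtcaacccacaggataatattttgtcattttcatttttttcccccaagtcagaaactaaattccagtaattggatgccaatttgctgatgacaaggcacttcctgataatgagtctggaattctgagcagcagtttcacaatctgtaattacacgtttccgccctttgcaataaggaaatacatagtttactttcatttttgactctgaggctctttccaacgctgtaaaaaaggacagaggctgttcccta
MLKL: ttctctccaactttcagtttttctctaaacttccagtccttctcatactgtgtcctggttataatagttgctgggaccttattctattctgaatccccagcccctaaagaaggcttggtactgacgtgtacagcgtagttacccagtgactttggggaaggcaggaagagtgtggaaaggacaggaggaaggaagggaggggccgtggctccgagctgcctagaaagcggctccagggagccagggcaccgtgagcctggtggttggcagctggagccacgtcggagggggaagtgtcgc
AIM2: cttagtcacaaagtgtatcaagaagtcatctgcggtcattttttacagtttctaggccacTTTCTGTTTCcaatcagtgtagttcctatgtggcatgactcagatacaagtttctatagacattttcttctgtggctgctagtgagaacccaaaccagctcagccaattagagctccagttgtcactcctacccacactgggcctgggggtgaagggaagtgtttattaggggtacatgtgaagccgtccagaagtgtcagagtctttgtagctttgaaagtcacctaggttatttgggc
TLR3: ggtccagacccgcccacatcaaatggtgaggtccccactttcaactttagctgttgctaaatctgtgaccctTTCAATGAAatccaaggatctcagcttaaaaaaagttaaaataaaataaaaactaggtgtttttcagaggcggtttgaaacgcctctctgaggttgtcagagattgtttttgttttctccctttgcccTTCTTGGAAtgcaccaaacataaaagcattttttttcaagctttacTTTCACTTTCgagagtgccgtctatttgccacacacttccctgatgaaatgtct
The first motif was GAAA, any 2 bases and GAAA again, the core of the interferon-stimulated response element, and the second was the same repeat with a gap of 3 bases. The third was TTC, any 3 bases and GAA, the gamma-activated site. Among all 35116 promoter entries of that table, 3.57% held the first, 2.86% the second and 7.66% the third. CASP4 held only the second motif, the variant with the wider gap and not the core itself, at bases 22 to 32 of the run. The MLKL window held none of the 3. AIM2 held the first motif at bases 61 to 70. TLR3 held the first motif at bases 247 to 256, across the annotated start, and the third at bases 73 to 81 and 201 to 209. The table has entries for 5 of the 9 members, and those of IFI16 and PYCARD held no match. A match describes the letters only and is no evidence of binding in these cells.

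**Figure D1:**
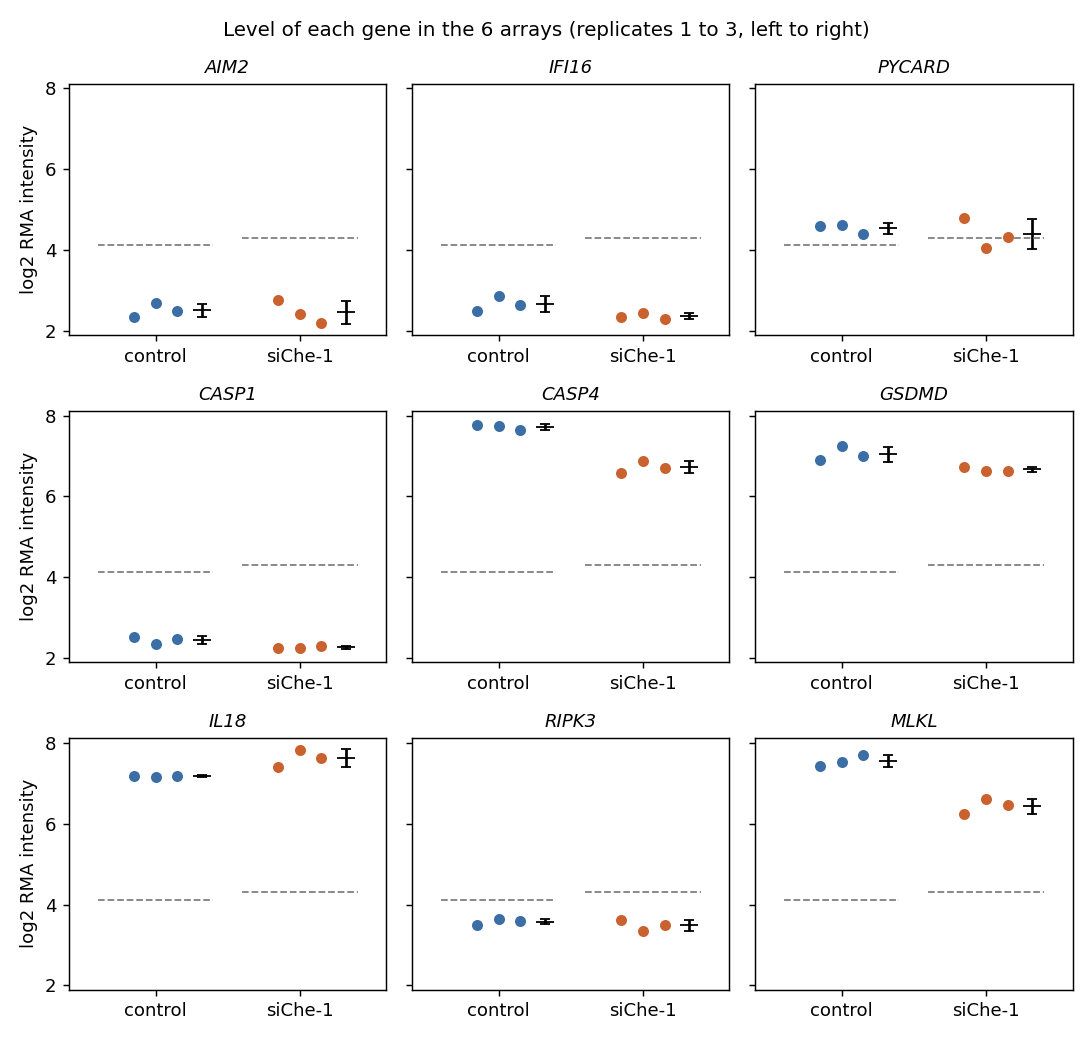
Log2 RMA intensity of the 9 genes in each of the 3 control arrays (blue) and the 3 siChe-1 arrays (orange), with the group mean and SD in black and the 95th percentile of olfactory receptor genes as a dashed line. CASP4 and MLKL are separated by 0.77 and 0.81 between the nearest arrays of the groups, and AIM2, IFI16, CASP1 and RIPK3 lie under the dashed line in both groups.

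The sensors and the adaptor come first in the pathway. AIM2, which binds cytosolic DNA and starts its own inflammasome, read 2.36, 2.69 and 2.50 in the arrays labelled control and 2.77, 2.42 and 2.21 in those labelled siChe-1 (log2 RMA intensity). The groups overlapped, and the difference was -0.05 (95% confidence interval -0.41 to 0.31, limma adjusted p = 0.913). IFI16, a related DNA sensor found largely in the nucleus, read 2.50, 2.87 and 2.64 in the control arrays and 2.34, 2.45 and 2.30 in the siChe-1 arrays. Every siChe-1 array was below every control array, but only by 0.049, and the difference of -0.31 did not pass (interval -0.60 to -0.01, limma adjusted p = 0.257). Both genes were far below the guide level in both groups, so the sizes of these differences are not interpretable as changes in transcript. PYHIN1 and MNDA, relatives of IFI16 that lie beside it and AIM2 on chromosome 1, were also not shown to be above background, at 2.65 and 2.63 in the control group.

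PYCARD, the adaptor, read 4.61, 4.63 and 4.39 in the control arrays and 4.80, 4.06 and 4.33 in the siChe-1 arrays. Its highest and its lowest value both lay in the siChe-1 group, so the groups overlapped. The group means of 4.54 and 4.40 were only just above the guide levels, and the difference was -0.14 (interval -0.55 to 0.26, limma adjusted p = 0.742). Without siChe-1 replicate 2, its lowest array, the difference turned to 0.023. Without siChe-1 replicate 1, its highest array and the one that stood apart, it was -0.35 (limma adjusted p = 0.138).

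CASP1, the caspase that the canonical complex activates, read 2.53, 2.35 and 2.47 in the control arrays and 2.24, 2.26 and 2.30 in the siChe-1 arrays. The groups did not overlap, with a gap of 0.050, and the difference of -0.18 did not pass (interval -0.43 to 0.07, limma adjusted p = 0.462). All 6 values were below the guide level. CASP1 lies on chromosome 11 in a row of related genes that holds CASP4, CASP5, CASP1, CARD16 and CARD18 in that order, and CARD16 is close in sequence to the first part of CASP1, so their probes could share signal. CASP5 (2.68 in the control group), CARD16 (2.54) and CARD18 (2.45) were also not shown to be above background.

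CASP4 was the one gene of that row measured above the guide level, and the one that passed. It read 7.76, 7.75 and 7.64 in the arrays labelled control and 6.58, 6.88 and 6.69 in those labelled siChe-1. The 3 control arrays lay within 0.11 of each other, and the highest siChe-1 array was 0.77 below the lowest of them. The group levels were 7.72 ± 0.06 and 6.72 ± 0.15 (SD, n = 3 each). The difference was -1.0 ± 0.12 (moderated SE), a 2.0-fold lower level (95% confidence interval -1.27 to -0.73), and limma over all 18417 genes gave adjusted p = 0.00141. Its exact two-sided permutation p was 0.1, the smallest that 3 arrays against 3 can give. Of all genes tested, 155 had a more negative difference. Without siChe-1 replicate 1, the lowest array, the difference was -0.93 (adjusted p = 0.000964), and over all alternatives the adjusted p lay between 2.26e-05 and 0.0160.

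Downstream of both caspases stands GSDMD, the pore-former of pyroptosis. It read 6.89, 7.25 and 6.99 in the control arrays and 6.73, 6.64 and 6.63 in the siChe-1 arrays. The groups did not overlap, and the gap of 0.16 was smaller than the spread of the control arrays, 0.36. Its level in the siChe-1 group was 77.0% of that in the control group, or, turned, the control level was 129.8% of the siChe-1 level. The difference of -0.38 ± 0.13 (SE, interval -0.66 to -0.09) did not pass the test (limma adjusted p = 0.151), and 1404 genes were further down. With array weights it passed (limma adjusted p = 0.0268), with a range of 0.0268 to 0.433 over its alternatives. Without control replicate 2, the highest array, the difference was -0.27.

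IL18, the cytokine that these caspases mature, was the single member whose difference was above 0. It read 7.19, 7.16 and 7.18 in the control arrays and 7.39, 7.83 and 7.62 in the siChe-1 arrays. The control arrays were almost alike, the siChe-1 arrays were spread over 0.44, and the lowest of them was 0.20 above the highest control array. The group levels were 7.18 ± 0.01 and 7.61 ± 0.22 (SD, n = 3 each). The difference was 0.44 ± 0.13 (SE, interval 0.14 to 0.74), or 1.35-fold, and it did not pass (limma adjusted p = 0.111). It passed without siChe-1 replicate 1, the lowest array of its group and the one that stood apart (0.55, adjusted p = 0.0161), with array weights (0.48, adjusted p = 0.00699) and after a further quantile normalization (0.52, adjusted p = 0.0437). Over all alternatives its adjusted p ranged from 0.00699 to 0.299, and its direction was the same in each of them.

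RIPK3 and MLKL are the last steps of necroptosis. RIPK3, the kinase, read 3.50, 3.65 and 3.59 in the control arrays and 3.61, 3.34 and 3.50 in the siChe-1 arrays, with overlapping groups. It was not shown to be above background in either group, and its difference was -0.09 (interval -0.36 to 0.18, limma adjusted p = 0.752). MLKL, the executioner, read 7.42, 7.53 and 7.70 in the control arrays and 6.24, 6.60 and 6.45 in the siChe-1 arrays. The groups were 0.81 apart at their nearest, which is more than the spread within either group (0.29 and 0.36). The group levels were 7.55 ± 0.14 and 6.43 ± 0.18 (SD, n = 3 each). The difference was -1.12 ± 0.14 (SE, interval -1.42 to -0.81), a 2.17-fold lower level, with limma adjusted p = 0.00141 and exact two-sided permutation p = 0.1. Of all genes tested, 125 had a more negative difference. Without siChe-1 replicate 1 the difference was -1.02 (adjusted p = 0.000950), and over all alternatives the adjusted p lay between 2.68e-05 and 0.0160.

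**Figure D2:**
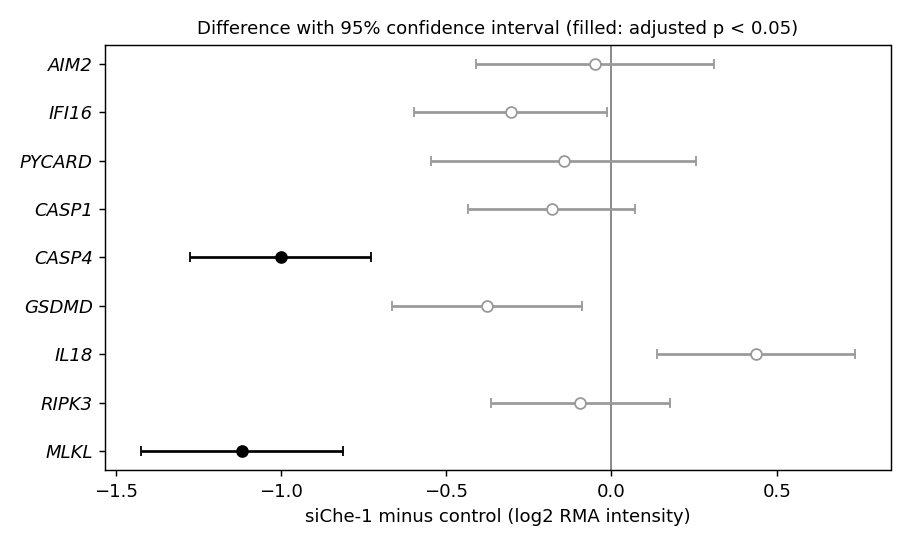
Difference of each of the 9 genes, siChe-1 minus control, in log2 RMA intensity, with the 95% confidence interval of the limma fit; filled black points passed at an adjusted p under 0.05. CASP4 (-1.0) and MLKL (-1.12) lie apart from 0, GSDMD (-0.38) and IL18 (0.44) have intervals that leave out 0 but did not pass after adjustment, and IFI16 (-0.31) does so narrowly, in the range of unexpressed genes.

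Counted together, 2 of the 9 genes were called lower, none was called higher by limma, and 5 had an unadjusted p under 0.05, against 17.7% of all genes. The members were chosen with earlier results of these data known, so these counts are a description and no independent test. Over all genes tested, 2.52% were called lower and 3.72% were called in either direction, and among the 12851 genes above the guide level in at least 1 group 5.20% were called. The same filter keeps 5 members, CASP4, GSDMD, IL18, MLKL and PYCARD. Groups did not overlap for 6 of the 9 members, 5 lower and 1 higher, against 24.0% of all genes tested. Of these 6, CASP1 and IFI16 were not shown to be above background, and IFI16 is also among the 5 with an unadjusted p under 0.05. The median difference of the 9 genes was -0.18, and that of all genes was 0.0051. That median is the value of CASP1, a gene not shown to be above background, so it does not describe a shift of the 9 genes.

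**Figure D3:**
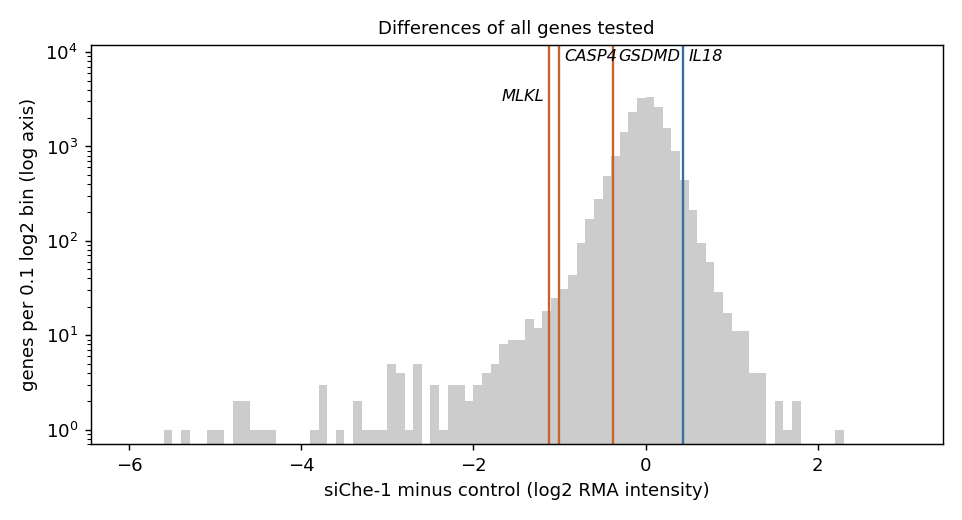
Distribution of the difference, siChe-1 minus control in log2 RMA intensity, over the 18417 genes tested, as genes per bin on a log axis, with vertical lines at MLKL, CASP4, GSDMD and IL18. MLKL and CASP4 lie in the lower tail with 125 and 155 genes further down, while IL18 has 690 genes further up and GSDMD 1404 further down.

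CASP4 and MLKL were compared with all other genes by their profile over the 6 arrays, each gene's values taken minus their mean. The 3 genes nearest to CASP4 were PMAIP1, the gene of the apoptosis inducer NOXA (Euclidean distance 0.185, difference -0.98), TIPARP, a mono-ADP-ribosyltransferase (0.214, difference -0.90), and OPTN, the autophagy receptor optineurin (0.223, difference -0.98). The 3 nearest to MLKL were AGPAT4-IT1, a non-coding transcript (0.171, difference -1.15), LAMC1, a laminin chain (0.175, difference -0.99), and TRIM26, a ubiquitin ligase (0.180, difference -1.08). MLKL ranked 24th by nearness to CASP4 and CASP4 ranked 19th to MLKL, at a distance of 0.333. With 6 arrays in 2 groups this likeness mostly restates the group difference and is a description with no test.

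The other genes of these pathways were described from 6 lists that held 77 genes, of which 69 were measured. Of the 69, 3 were called lower, TLR3, SAMHD1 and CASP8, 1 was called higher, NAIP, and 65 did not pass. Over all genes 2.52% were called lower and 1.19% higher. The lists, too, were chosen with earlier results of these data known. The median difference of the 69 was -0.06, and the groups did not overlap for 14 of them, against 24.0% of all genes. An unadjusted p under 0.05 by limma was reached by 14 of the 69, against 17.7% of all genes. That share is the one to set beside the counts of each list below. As many as 30 of the 69 were not shown to be above background in either group.

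Of 16 measured regulators of necroptosis, 2 were lower, none was higher by limma and 14 did not pass, with a median of -0.09. At an unadjusted p under 0.05 by limma there were 6 of the 16, against 17.7% of all genes. These were TLR3, CASP8, CYLD (-0.72), BIRC2 (-0.65), CFLAR (-0.52) and FADD (-0.33), each with a difference below 0. The groups did not overlap for these 6, against 13.3% of all genes without overlap and lower. TLR3, an endosomal receptor for double-stranded RNA that can signal to RIPK3 through the adaptor TICAM1, read 7.18, 7.15 and 7.06 in the control arrays and 4.69, 5.53 and 5.69 in the siChe-1 arrays. All 3 siChe-1 arrays were far below the control arrays, and replicate 1 was the lowest. The difference was -1.83 ± 0.22 (SE), a 3.55-fold lower level (limma adjusted p = 0.00141), and -1.52 without siChe-1 replicate 1 (adjusted p = 2.92e-05). TLR3 passed under every alternative run, with adjusted p between 2.40e-06 and 0.0172. CASP8, the protease that holds necroptosis in check and can also cleave gasdermin D, read 7.15, 7.21 and 7.16 in the control arrays and 6.30, 6.73 and 6.67 in the siChe-1 arrays. Its difference was -0.61 ± 0.14 (SE, limma adjusted p = 0.0405), without overlap, and with siChe-1 replicate 1 again the lowest. Without siChe-1 replicate 1 or 2 it still passed (-0.47 and -0.69), and without siChe-1 replicate 3 or any single control array it did not (adjusted p from 0.0810 to 0.162). It also missed the threshold after a further quantile normalization (-0.55, limma adjusted p = 0.0523) and when all rows were tested (limma adjusted p = 0.113). In the latter the difference was the same, and both the limma fit and the adjustment ran over more features.

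Of 8 measured genes of cytosolic DNA sensing, SAMHD1 was lower and 7 did not pass (median -0.06). SAMHD1, which degrades deoxynucleotides and is a known interferon-induced gene, read 8.60, 8.80 and 9.03 in the control arrays and 7.45, 8.07 and 7.89 in the siChe-1 arrays, with no overlap. The difference was -1.01 ± 0.18 (SE, 2.01-fold, limma adjusted p = 0.0121). Without siChe-1 replicate 1, its lowest array, it was smaller and still passed (-0.83, limma adjusted p = 0.00652). It did not pass without control replicate 2 (adjusted p = 0.0707) or control replicate 3 (0.0789), nor when all rows were tested (0.0599).

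Among 14 other sensors and adaptors, NAIP was higher, none was lower by limma and 13 did not pass, with 2 of the 14 at an unadjusted p under 0.05 and a median of -0.02. NAIP, a cytosolic receptor for bacterial flagellin and secretion-system proteins, read 6.34, 6.36 and 6.54 in the control arrays and 6.83, 7.35 and 7.13 in the siChe-1 arrays. The groups did not overlap, and the difference was 0.69 ± 0.15 (SE, 1.62-fold, limma adjusted p = 0.0338). It passed with only 1 of the 6 arrays left out, siChe-1 replicate 1 (0.83, adjusted p = 0.00290), and with any other array left out its adjusted p was between 0.0886 and 0.155. It also missed the threshold when its probe sets were averaged (0.61, adjusted p = 0.0538) and when all rows were tested (adjusted p = 0.105). NAIP has near-identical copies in the genome, so its signal may not come from 1 gene. NLRC4, the partner that NAIP needs, was not shown to be above background.

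In the remaining lists no gene passed by limma. Of 8 other inflammatory caspases, gasdermins and rupture genes, GSDMB had the smallest p (difference 0.61, limma adjusted p = 0.118) and 3 had an unadjusted p under 0.05. Of 15 interleukin-1 family genes, IL33 had the smallest p (-0.42, limma adjusted p = 0.188), at levels not shown to be above background, and 2 had an unadjusted p under 0.05. Only 2 of those 15 were above the guide level in at least 1 group. Of 8 inhibitors of the pathway, DPP9, a dipeptidase that restrains NLRP1 and CARD8, had the smallest p (-0.22, limma adjusted p = 0.409), and 0 had an unadjusted p under 0.05.

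**Figure D4:**
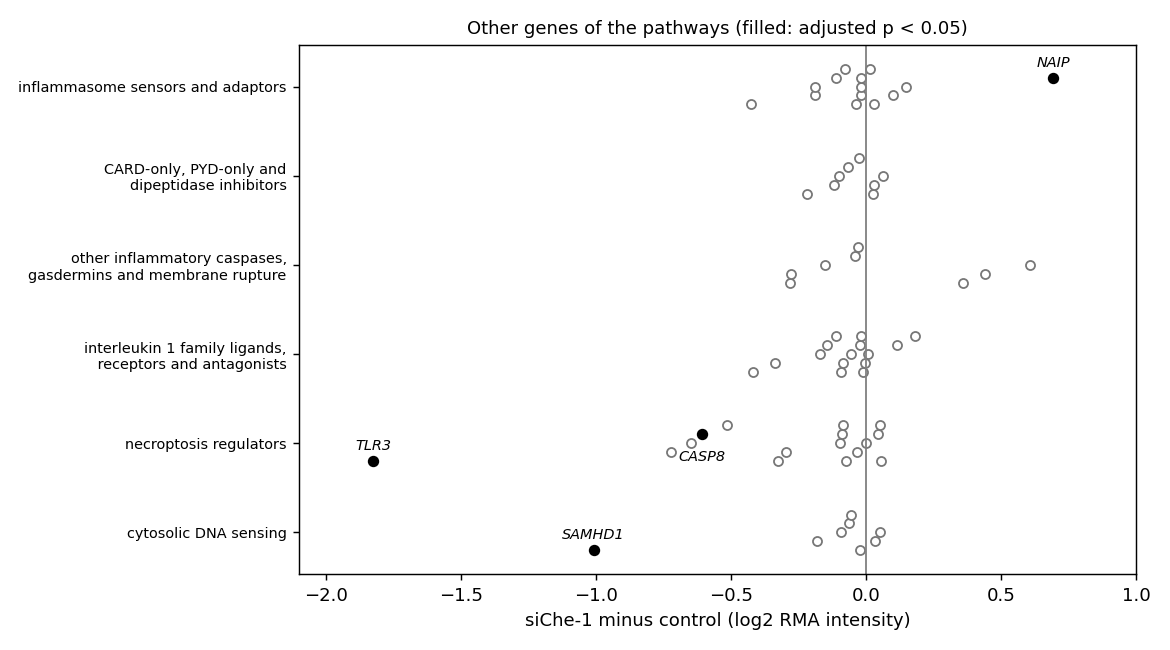
Difference of the 69 other measured pathway genes, siChe-1 minus control in log2 RMA intensity, 1 row per list, with filled points at an adjusted p under 0.05. TLR3 (-1.83), SAMHD1 (-1.01) and CASP8 (-0.61) are called lower and NAIP (0.69) higher, and most other points lie near 0. CYLD (-0.72) and BIRC2 (-0.65) lie further down than CASP8 and did not pass, and neither did GSDMB (0.61) on the other side.

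**Figure D5:**
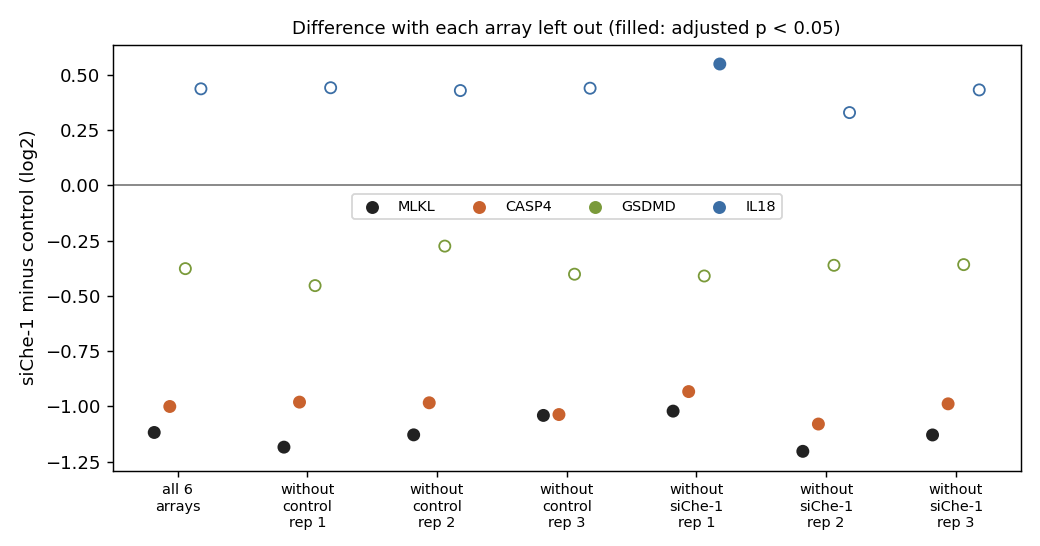
Difference, siChe-1 minus control in log2 RMA intensity, of MLKL, CASP4, GSDMD and IL18 with all 6 arrays and with each array left out, filled where the adjusted p was under 0.05. MLKL stays between -1.20 and -1.02 and CASP4 between -1.08 and -0.93 and both pass each time, GSDMD passes in none of these fits, and IL18 passes only without siChe-1 replicate 1 (0.55).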

How the data were processed

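Per the submitters' processing notes, the authors used RMA in Affymetrix Expression Console, and the deposited values are on the log2 scale. The version and settings are not given in the sources used here. RMA normally corrects background, makes the array distributions alike and summarises probes by median polish, which hides any change in a cell's total RNA, and differences of dim genes are compressed. There are no detection calls.

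Of 33297 probe sets, 19460 had 1 gene symbol in the platform annotation, 1754 had several and 12083 were not listed. The gene IDs of 19429 matched NCBI's table (GRCh38.p14). The probe set with the highest mean was kept for each of 18417 genes. Levels of different probe sets are not comparable, apart from the olfactory receptor guide. The table held 0 columns of other samples.

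The 2 groups were fitted in limma 3.58.1 (R 4.3.3; no covariate, no filter), with Benjamini-Hochberg adjustment over all genes and a threshold of 0.05. The script was tested on simulated data. The members, lists and settings were chosen with earlier results of these data known. Other pathway genes were named where called (up to 5 per list, otherwise the 4 largest), or the 1 with the smallest p in a list with no call. CASP5, CARD16, CARD18, PYHIN1, MNDA and NLRC4 were named for position or role. Markers and necroptosis regulators were also named where the unadjusted p was under 0.05. Both choices were made after the values were seen. Alternatives were another quantile normalization, median centring, testing all rows, averaging probe sets, leaving out the 40% of genes with the lowest means, a trended robust prior, array weights, a replicate block, stricter thresholds, leaving out each array and, chosen after seeing the data, leaving out genes at the guide level.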

Additional observations from a re-analysis of the deposited data

How the results depend on the processing

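CASP4 and MLKL passed under every alternative run, and AATF kept its direction and its call. With array weights 4 of the 9 members passed, CASP4, MLKL, GSDMD and IL18, against 2 in the main comparison, and with 1 array left out 2 to 3 passed. Array weights also raised the calls over all 18417 genes from 685 to 2865, so the extra calls are not particular to these genes. In that fit siChe-1 replicate 3 had the largest weight (3.38). Of the 69 other pathway genes 4 passed, against 14 with array weights, 1 at an adjusted p under 0.01 and 1 when all 33297 rows were tested (TLR3 both times), and 1 to 6 with 1 array left out. Leaving out 1 array turned the sign of 2 members that had not passed: AIM2 ranged from -0.20 to 0.079 and PYCARD from -0.35 to 0.023.

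Replicate numbers 1 to 3 occur in both groups, and the labels do not tell what equal numbers share. Same-numbered arrays deviated together with correlations of 0.23, 0.064 and -0.045 (replicates 1, 2 and 3), against -0.23 to 0.16 for arrays of different numbers. Replicate 1 lay above that range and replicates 2 and 3 lay within it, so the numbers were not taken to pair the samples. With the replicate block, 2 members and 8 pathway genes passed.

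Over all genes 685 passed (220 higher, 465 lower), and 850 after median centring (170 higher, 680 lower). The count was 2865 with array weights, 1145 with the replicate block, 408 when all rows were tested, 261 at an adjusted p under 0.01, and 272 (without control replicate 3) to 1565 (without siChe-1 replicate 1) with 1 array left out. Signal near background limits AIM2, IFI16, CASP1 and RIPK3, for which only a low level can be stated.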
